A study of Mus musculus with 9 samples.

Results

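The genes described here encode the enzymes that cut extracellular matrix and cell-surface proteins, their tissue inhibitors and the enzymes that crosslink collagen and elastin. They were taken by symbol as the matrix metalloproteinases (Mmp), the tissue inhibitors of metalloproteinases (Timp1 to Timp4), the ADAM and ADAMTS genes, including the ADAMTS-like genes, and lysyl oxidase with its relatives (Lox, Loxl1 to Loxl4). Of 28956 entries in the count table, 74 matched these names, and 60 of them had at least 10 raw counts in at least 3 of the 9 libraries. The 60 members comprised 17 Mmp, 3 Timp, 16 Adam, 14 Adamts, 5 Adamtsl and 5 Lox genes, and all 60 also passed the filter of the test. The minimum left out 14 genes, among them Timp4, Mmp16, Mmp21, Mmp25 and Adamts8. Nearest to it, Adamts16 reached 10 counts in 3 libraries and was kept, while Adam7 and Mmp25 each reached 10 in 1 library and were left out.

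Poly(A) RNA from pieces of whole mouse liver was sequenced in 9 libraries, 3 in each of 3 groups. All mice were C57BL6J, aged 8 weeks, and received APAP (commonly acetaminophen, which is toxic to hepatocytes in overdose) at 300 mg/kg into the peritoneum. The APAP group received no cells, and the APAP+MSC and APAP+HDF groups were given 500000 MSC or HDF cells per mouse into a vein 90 min after APAP. The time point was 24 h. MSC is a usual abbreviation of mesenchymal stromal cell and HDF of human dermal fibroblast, but neither is spelled out in the labels, and no donor is named. No untreated liver is among the samples, so every level is one of injured liver. The labels do not state that each library came from a separate mouse, and the p-values therefore measure the spread between these samples.

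Each library held between 53267000 and 63176000 counts (5 digits kept). The labels name the cell type as hepatocytes, and the 8 hepatocyte markers summed to 95000 to 123077 CPM per library, where CPM is the count over the scaled library total. Markers of other liver cells were detected too. The summed level of 14 macrophage and monocyte markers was 73.1 to 221 CPM, that of 10 sinusoidal endothelial markers 172 to 350 CPM and that of 15 stellate cell and fibroblast markers 273 to 526 CPM. The values were therefore read as whole liver, in which fewer cells of a type and less RNA per cell cannot be told apart. Library numbers follow the column order within a group.

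Matrix metalloproteinases are zinc enzymes that are made as inactive proforms and together can degrade every main component of the extracellular matrix. TIMP proteins bind and block them, and TIMP3 also blocks several ADAM and ADAMTS enzymes. ADAM proteases sit in the cell membrane and release growth factors, cytokines and receptors from the surface, ADAMTS proteases are secreted and cut proteoglycans, procollagens and von Willebrand factor, and lysyl oxidases crosslink collagen and elastin. In injured liver many of these proteins are made by macrophages, neutrophils, stellate cells and endothelial cells. They act in the clearing of debris and in the building and removal of scar matrix. Which cells made each member cannot be read from whole liver.

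In the mouse, 7 of the 17 Mmp members lie in 1 row on chromosome 9. In the RefSeq annotation of GRCm38.p6 the order is Mmp13, Mmp12, Mmp1b, Mmp3, Mmp1a, Mmp10, Mmp8, Mmp27, Mmp20 and Mmp7, with 0 other protein-coding genes between them. Mmp1a, Mmp1b and Mmp20 were not analysed here. RefSeq promoter windows of GRCm38.p6 matched 37 of the 60 members, and the 250 bases before each annotated start were searched. The AP-1 motif TGANTCA, which reads the same on both strands, was present in the windows of 6 of these 37 members (16.2%) and of 7.82% of all 27025 genes with a window. Of those 6, 5 were genes of the chromosome 9 row (Mmp13, Mmp12, Mmp3, Mmp10 and Mmp7), and the other was Adam19. The 100 bases before the start are shown for the 7 neighbours, because they show where these genes are alike and where Mmp8 and Mmp27 differ. Each runs 5′ to 3′ on the gene's strand with the AP-1 motif in capitals.
Mmp13, chr9:7272414-7272513, + strand: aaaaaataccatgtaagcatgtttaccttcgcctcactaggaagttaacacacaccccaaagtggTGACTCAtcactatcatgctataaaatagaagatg
Mmp12, chr9:7347274-7347373, + strand: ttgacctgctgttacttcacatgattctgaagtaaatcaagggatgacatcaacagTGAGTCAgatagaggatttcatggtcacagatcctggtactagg
Mmp3, chr9:7445722-7445821, + strand: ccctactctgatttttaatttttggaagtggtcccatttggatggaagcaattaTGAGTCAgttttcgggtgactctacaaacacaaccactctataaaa
Mmp10, chr9:7502242-7502341, + strand: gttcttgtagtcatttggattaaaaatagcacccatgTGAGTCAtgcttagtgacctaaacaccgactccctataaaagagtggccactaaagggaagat
Mmp7, chr9:7691990-7692089, + strand: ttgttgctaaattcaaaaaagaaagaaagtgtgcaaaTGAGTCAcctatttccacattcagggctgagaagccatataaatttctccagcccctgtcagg
Mmp8, chr9:7558329-7558428, + strand: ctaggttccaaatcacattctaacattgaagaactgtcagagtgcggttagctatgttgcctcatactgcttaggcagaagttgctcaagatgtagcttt
Mmp27, chr9:7571296-7571395, + strand: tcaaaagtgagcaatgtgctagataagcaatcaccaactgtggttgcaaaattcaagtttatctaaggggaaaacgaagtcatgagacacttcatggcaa
For Mmp12 and Mmp7, which have more than 1 annotated start, the start whose window holds the motif is shown. The other window of each gene held no match. The motif began 35 bases before the start in Mmp13, 44 in Mmp12, 46 in Mmp3, and 63 in both Mmp10 and Mmp7. The windows of Mmp8 and Mmp27 held no match in the 250 bases. A TATA box (TATAAA, gene strand) was found in the windows of 6 of the 37 members (16.2%), against 8.94% of all genes; they were Mmp13, Mmp3, Mmp10, Mmp7, Adamts1 and Adamtsl2. Over all 37 members, a GC box (GGGCGG, both strands) was found in 22 (59.5%), against 35.4% of all genes, and an ETS motif (CCGGAA, both strands) in 3 (8.11%), against 13.6%. The motifs can overlap one another, and a match describes letters only.

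Levels can be compared between genes only per length of transcript. On the scale of mean CPM per kilobase of annotated exon over the 9 libraries, the level was highest for Adam9 at 23.9, a membrane protease of broad expression, followed by Mmp19 at 19.9 and the membrane-type metalloproteinases Mmp14 at 19.4 and Mmp15 at 9.90. The sheddases Adam10 and Adam17 stood at 8.12 and 5.35, and Adamts1, which cuts proteoglycans, at 3.68. Among the inhibitors Timp2 stood at 2.48, Timp3 at 1.97 and Timp1 at 1.46, and among the crosslinking enzymes Loxl4 at 2.58 and Lox at 0.164. The collagenases Mmp8 and Mmp13 and the gelatinase Mmp9 were among the lowest, at 0.120, 0.203 and 0.148, and Adamts16 was last of the 60 at 0.0226. Exons of 15 members overlap a gene on the opposite strand in the GENCODE vM21 annotation. Among the members of high level these are Mmp19, with Gm47093 and Tmem198b, and Adam17, with Iah1. Those pairs also include Mmp24 with BC029722, Adam15 with 4731419I09Rik, Adam8 with Gm16201 and Mmp12 with Mmp1b. The strand setting of the counting is not stated, so reads of such pairs may have been mixed.

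**Figure D1:**
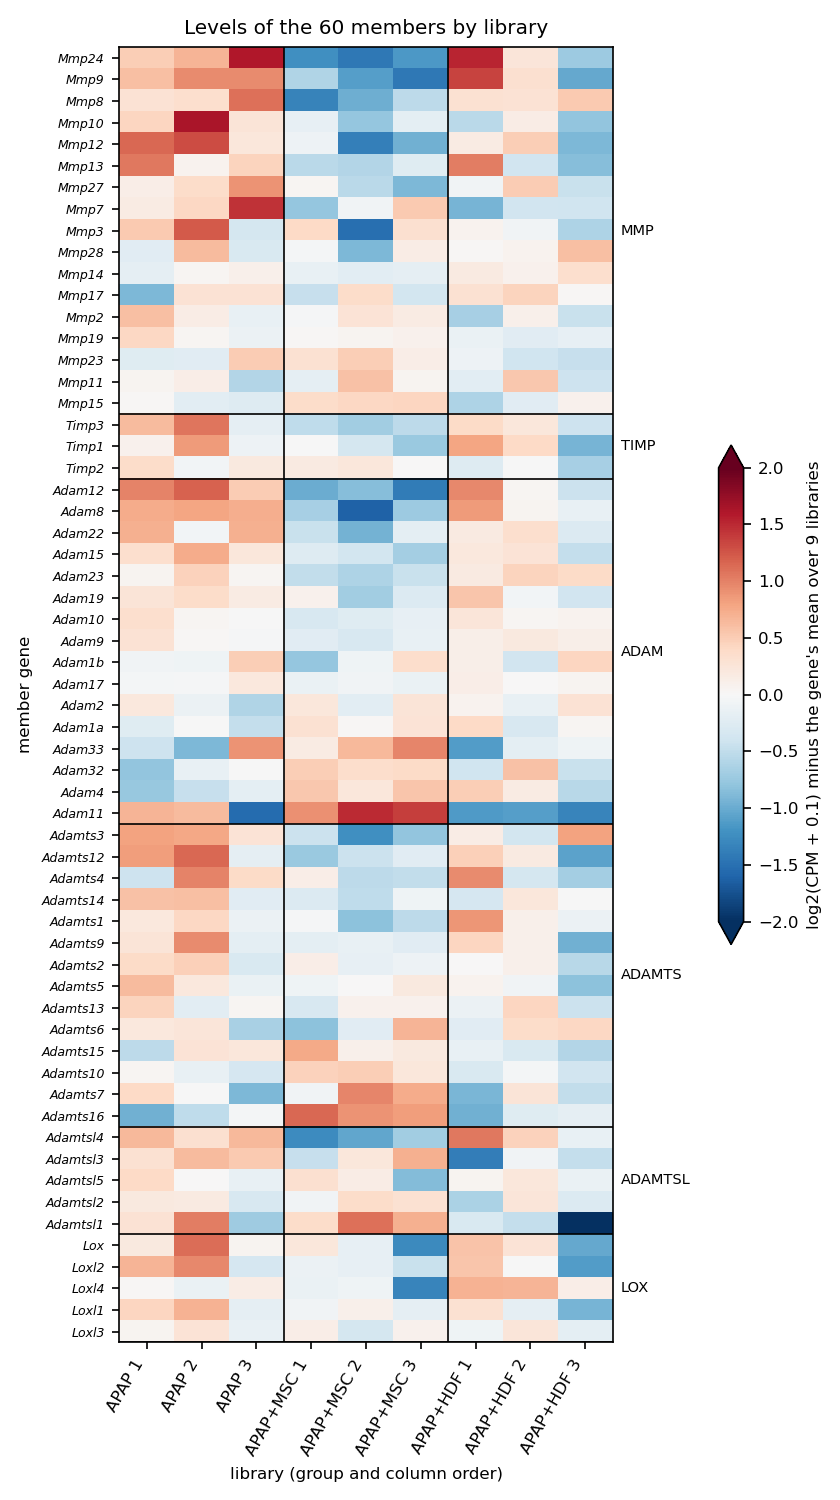
Levels of the 60 members (rows, by family and then by the difference between APAP+MSC and APAP) in the 9 libraries (columns); the colour is the log2 level minus the gene's mean over the libraries, red for higher and blue for lower. The rows from Mmp24 to Mmp12, and Adam12, Adam8, Adam15, Adam23 and Adamtsl4, are blue in all 3 APAP+MSC libraries, palest for Mmp12 in library 1, and the APAP+HDF columns show no such block.

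Livers given APAP and MSC had lower levels of several matrix proteases than livers given APAP alone. Of the 60 members, 9 fell and 0 rose at an adjusted p under 0.05 (edgeR quasi-likelihood test, Benjamini-Hochberg over 17582 genes). Those that fell were the metalloproteinases Mmp8, Mmp12 and Mmp24, the inhibitor Timp3, the membrane proteins Adam8, Adam12, Adam15 and Adam23, and Adamtsl4. This was 15% of the members, against 6.38% of all genes called in either direction, 3.54% lower and 2.83% higher. At an unadjusted p under 0.05, 18 members were lower (30%, against 12.7% of all genes) and 5 higher (8.33%, against 10.2%), and of increases DESeq2 called 2 and limma-voom 0. The log2 fold change was above 0 for 16 of the 60 members (26.7%, against 48.9% of all genes) and below 0 for 44, with a median of -0.35 against -0.01 over all genes tested. All 3 libraries of one group lay above all 3 of the other for 27 members (45.0%, against 28.5% of all genes), 20 of them with APAP+MSC below (33.3%, against 14.7%) and 7 with APAP+MSC above (11.7%, against 13.7%).

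Among the secreted metalloproteinases, the neutrophil collagenase Mmp8 stood at 0.325, 0.336 and 0.649 CPM in the APAP libraries and at 0.0369, 0.0755 and 0.141 CPM in the APAP+MSC libraries. The groups did not overlap, and the APAP+MSC values rested on 2, 4 and 8 counts. Its log2 fold change was -2.36 ± 0.54 (SE of the fit, n = 3 per group; edgeR adjusted p = 0.0274). The macrophage elastase Mmp12 stood at 7.94, 8.77 and 4.13 CPM with APAP and at 3.25, 1.30 and 1.76 CPM with APAP+MSC, again without overlap. Mmp12 fell by 1.72 on the log2 scale (SE 0.43, edgeR adjusted p = 0.0467). The gelatinase Mmp9 stood at 0.595, 0.784 and 0.785 CPM against 0.203, 0.113 and 0.0705 CPM. Its difference of -2.48 ± 0.69 did not pass (edgeR adjusted p = 0.0560), although the groups did not overlap, while DESeq2 (adjusted p = 0.0062), the fit with no filter on low counts and the fit of these 2 groups alone called it. For the collagenase Mmp13, with 1.10, 0.504 and 0.679 CPM against 0.295, 0.283 and 0.388 CPM, the difference was -1.23 ± 0.56 (edgeR adjusted p = 0.220). The gelatinase Mmp2 stood at a mean of 1.43 ± 0.41 CPM (SD, n = 3) with APAP and 1.34 ± 0.15 CPM with APAP+MSC, and Mmp19 at 74.8 ± 14.4 and 71.0 ± 1.5 CPM. Both groups overlapped for these last genes.

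The 7 neighbours on chromosome 9 all had a log2 fold change below 0 in APAP+MSC, and 2 of them, Mmp8 and Mmp12, passed the test. Of all genes 3.54% were called lower and 14.7% lay wholly below APAP without overlap. The direction was not particular to the row. Values above 0 were found in 16 of the 60 members (26.7%, against 48.9% of all genes), and 14 of the 17 Mmp members were below 0. The window of Mmp8 held no AP-1 motif, and Mmp12 had the motif before only 1 of its annotated starts. Mmp10 lay at 0.181 to 0.635 CPM with APAP and at 0.0378 to 0.111 CPM with APAP+MSC, and Mmp27 at 0.541 to 0.981 and 0.211 to 0.498 CPM, without overlap in either. Mmp3 and Mmp7, a stromelysin and matrilysin, overlapped between the groups, with 0.543 to 1.81 against 0.189 to 0.978 CPM and 0.685 to 1.83 against 0.314 to 0.916 CPM. Against the same APAP libraries, all 7 neighbours also had a log2 fold change below 0 in APAP+HDF, from -0.35 for Mmp8 to -1.89 for Mmp10. None of the 7 passed the test in that comparison, where 0% of all genes did. There too, values above 0 were found in only 14 of the 60 members (23.3%, against 49.0% of all genes).

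**Figure D2:**
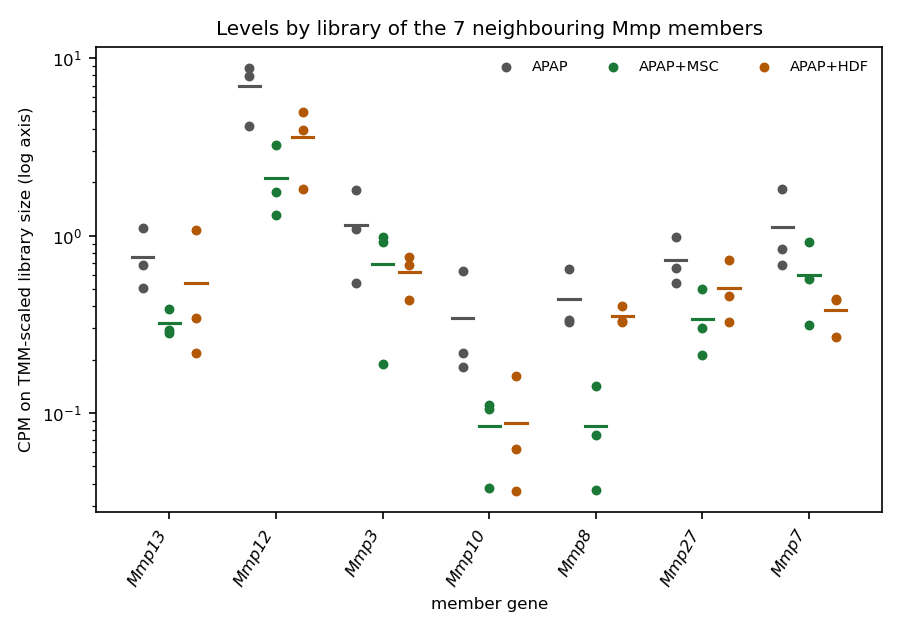
CPM on a log axis of the 7 neighbouring Mmp members, in their order along the chromosome, with 1 point per library and a bar at the group mean. Mmp12 has the highest level, and for Mmp13, Mmp12, Mmp10, Mmp8 and Mmp27 the 3 APAP+MSC points lie below the 3 APAP points.

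Of the membrane-type metalloproteinases described here, Mmp24, Mmp14 and Mmp15, 1 was called. Mmp24, with 1.14, 1.31 and 2.57 CPM in APAP and 0.277, 0.227 and 0.300 CPM in APAP+MSC, fell by 2.65 on the log2 scale (SE 0.67, edgeR adjusted p = 0.0440). Mmp14, an activator of proMmp2, overlapped between the groups at 71.3, 82.3 and 86.1 against 72.3, 69.2 and 70.7 CPM. Mmp15 lay higher in every APAP+MSC library, at 64.1, 66.1 and 66.5 CPM against 50.1, 42.6 and 41.2 CPM. Its difference of 0.55 ± 0.15 missed the threshold (edgeR adjusted p = 0.0524), and DESeq2, the fit with no filter and the fit of these 2 groups alone called it.

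Of the inhibitors, Timp3, which is bound to the matrix, fell. It stood at 13.3, 18 and 7.5 CPM with APAP and at 5.98, 5.25 and 5.89 CPM with APAP+MSC, so the groups did not overlap and the APAP libraries were the more spread. The log2 fold change was -1.18 ± 0.30 (edgeR adjusted p = 0.0448). Timp1, the inhibitor most often followed in liver scarring, overlapped at 1.26, 2.24 and 1.10 against 1.18, 0.906 and 0.670 CPM, with a difference of -0.73 ± 0.45 (edgeR adjusted p = 0.376). Timp2 overlapped too, at 11.7, 8.64 and 10.4 against 10.2, 10.6 and 9.04 CPM.

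Among the ADAM genes, 4 of 16 fell, against 3.54% of all genes. Adam8, a protease of leukocytes, stood at 2.85, 2.95 and 2.81 CPM with APAP and at 1.02, 0.472 and 0.969 CPM with APAP+MSC, and fell by 1.80 on the log2 scale (SE 0.33, edgeR adjusted p = 0.0161). Adam12, a protease of mesenchymal cells, stood at 2.63, 3.01 and 1.86 against 0.591, 0.661 and 0.423 CPM and fell by 2.15 (SE 0.40, edgeR adjusted p = 0.0165). In both genes the lowest APAP library lay well above the highest APAP+MSC library. Adam15 fell by 0.89 (SE 0.23, edgeR adjusted p = 0.0448), from 6.01, 7.97 and 5.52 CPM to 3.95, 3.63 and 2.92 CPM. Adam23, an integrin-binding member without protease activity, fell by 0.72 (SE 0.14, edgeR adjusted p = 0.0170), from 18.1, 24.1 and 18 CPM to 12.4, 11.4 and 12.8 CPM. No group overlapped for these 4 genes.

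The ADAM proteases best known as sheddases were not called in APAP+MSC against APAP. Adam10 lay at 46.7, 38.1 and 36.7 CPM with APAP and at 29.7, 31.1 and 33.1 CPM with APAP+MSC, and Adam9 at 117, 97.3 and 94.0 against 81.8, 76.5 and 86.1 CPM. Neither group pair overlapped, and the differences of -0.37 ± 0.11 (edgeR adjusted p = 0.0737) for Adam10 and -0.34 ± 0.10 (edgeR adjusted p = 0.0788) for Adam9 did not pass. Adam17, which releases tumour necrosis factor from the cell surface, differed by -0.16 ± 0.10 (edgeR adjusted p = 0.367), with 23.4, 23.6 and 27.8 against 22.0, 22.9 and 22.0 CPM. From a list of 18 substrates and partners of these sheddases, chosen with earlier results of these data known, 17 were tested. Of the 17, 6 fell and 0 rose, against 3.54% of all genes lower and 2.83% higher. Their median log2 fold change was -0.55, against -0.01 over all genes. Those 6 were Mertk and Axl, receptors by which macrophages take up dead cells, the epidermal growth factor receptor ligands Hbegf, Tgfa and Ereg, and Tspan5, a tetraspanin partner of Adam10. The 4 with the smallest p included Mertk, at 22.2, 21.3 and 23.9 CPM against 13.4, 14.2 and 14.3 CPM (log2 -0.69 ± 0.12, edgeR adjusted p = 0.0128). Hbegf fell by 2.01 on the log2 scale (SE 0.45, edgeR adjusted p = 0.0298).

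In the ADAMTS genes 0 of 14 passed in either direction, against 6.38% of all genes, a share too low to set 0 of 14 apart from it. Adamts10, a protease of fibrillin microfibrils, lay higher in all 3 APAP+MSC libraries, at 12.7, 12.9 and 10.7 against 9.47, 8.33 and 7.30 CPM (0.54 ± 0.15, edgeR adjusted p = 0.0547), and DESeq2 called it. Adamts16 was at 0, 0.0373 and 0.0905 CPM with APAP, which is 0, 2 and 6 counts, and at 0.332, 0.264 and 0.247 CPM with APAP+MSC, which is 18, 14 and 14 counts (edgeR adjusted p = 0.0515). In the other direction Adamts3, a procollagen peptidase named after its values were seen, was at 0.307, 0.299 and 0.181 CPM with APAP and at 0.0738, 0 and 0.0352 CPM with APAP+MSC, without overlap. Its difference of -2.74 ± 0.79 missed the threshold (edgeR adjusted p = 0.0540), and DESeq2 (adjusted p = 0.0246) and the fit of these 2 groups alone called it. Adamts12, named in the same way, lay at 2.18, 2.73 and 1.03 against 0.664, 0.850 and 0.987 CPM, also without overlap (-1.22 ± 0.44, edgeR adjusted p = 0.127). The proteoglycan-cutting Adamts1 lay at 19.7, 22.9 and 15.6 against 16.7, 9.63 and 11.8 CPM, and Adamts4, Adamts5 and Adamts9 overlapped between the groups as well. The procollagen peptidase Adamts2 and the von Willebrand factor protease Adamts13 had adjusted p of 0.561 and 0.784 by edgeR. Of the ADAMTS-like genes, which lack the protease domain, Adamtsl4 fell by 1.56 (SE 0.28, edgeR adjusted p = 0.0161), from 9.34, 7.37 and 9.31 CPM to 2.40, 2.81 and 3.61 CPM without overlap.

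None of the 5 crosslinking enzymes was called, by edgeR, DESeq2 or limma-voom, and 0 had an unadjusted p under 0.05. Of all genes edgeR called 6.38%, and 22.9% had an unadjusted p under 0.05. With 5 genes, 0 calls cannot be told apart from that share. All 5 had a log2 fold change below 0 (median -0.44), where 26.7% of the 60 members and 48.9% of all genes were above 0. Lox lay at 0.812, 1.62 and 0.724 CPM with APAP and at 0.830, 0.604 and 0.229 CPM with APAP+MSC (-0.91 ± 0.53), and Loxl2 at 10.1, 12.4 and 4.95 against 5.79, 5.59 and 4.58 CPM (-0.77 ± 0.42). In each of the 5 genes the groups overlapped. Among other collagen-modifying enzymes, from a list of 12 of which 11 were tested, edgeR called 0 as well. An unadjusted p under 0.05 was reached by 2 of the 11, against 22.9% of all genes.

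**Figure D3:**
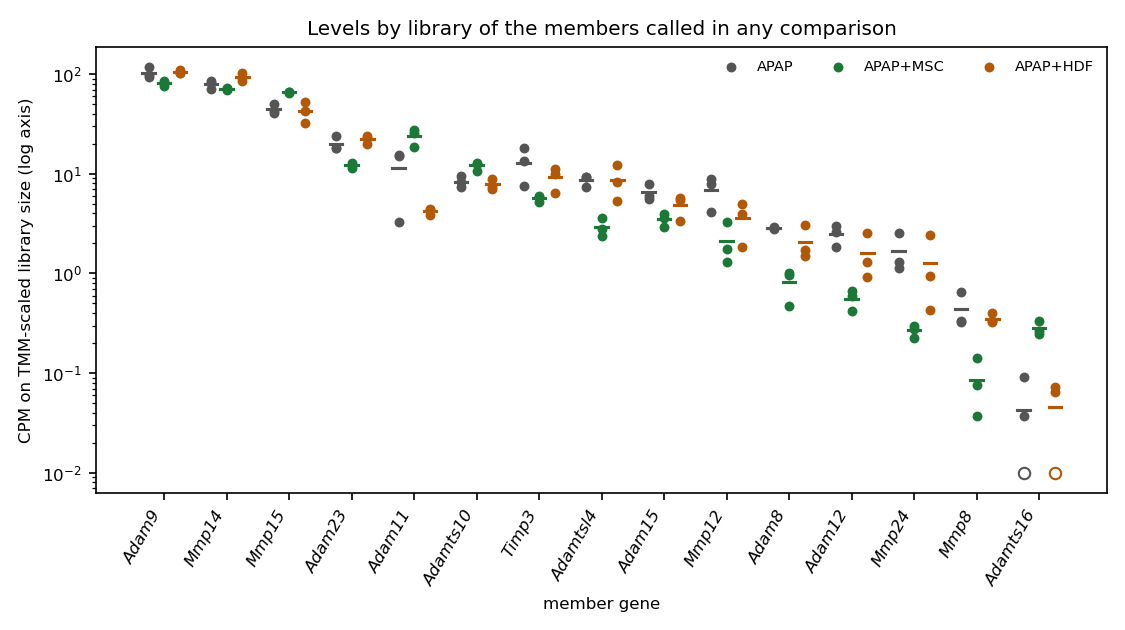
CPM on a log axis of the 15 members called in at least 1 comparison, ordered by mean level, with 1 point per library and a bar at the group mean; open circles at the bottom mark libraries with a count of 0. APAP+MSC lies lowest for most genes and highest for Mmp15, Adam11, Adamts10 and Adamts16, and for Adam11 1 APAP library lies with the APAP+HDF libraries.

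Markers of several cell types also differed between APAP+MSC and APAP, where 3.54% of all genes fell and 2.83% rose. Of 14 macrophage and monocyte markers tested 8 fell with MSC, and their summed level was 149 to 221 CPM with APAP, 73.1 to 99.1 with APAP+MSC and 113 to 166 with APAP+HDF. Cd68, a lysosomal protein of macrophages, lay at 43.1, 32.7 and 40.6 CPM with APAP and at 19.3, 12.7 and 17 CPM with APAP+MSC. Of 6 neutrophil markers tested 3 fell, and the list's sum was 9.5 to 12.4, 2.98 to 4.67 and 3.62 to 10.8 CPM in the same order, with Ly6g, Mpo, Ngp and Camp under the count minimum. S100a8, a calcium-binding protein of neutrophils, lay at 2.69, 2.15 and 3.50 CPM with APAP and at 0.849, 0.491 and 0.370 CPM with APAP+MSC. Of 10 sinusoidal endothelial markers 4 fell (238 to 350, 172 to 197 and 227 to 309 CPM), and of 15 stellate cell and fibroblast markers 4 fell (411 to 526, 339 to 365 and 273 to 405 CPM). Kupffer cell markers had 1 of 8 lower (158 to 374, 246 to 372 and 170 to 222 CPM), with a median log2 fold change of -0.61. All 3 APAP+MSC libraries lay above APAP for 1 of these 8, C6, and below for 2. C6 lay at 41.2, 86.3 and 94.2 CPM with APAP and 205, 142 and 148 CPM with APAP+MSC and is part of the summed level. None of 8 cholangiocyte and 8 hepatocyte markers was called. Of the vascular smooth muscle, mesothelial and T and B cell markers tested (3, 5 and 5), 0 were called. Of 5 platelet and megakaryocyte markers 1 rose. The part of these shifts in the lower levels of Mmp8, Mmp9, Mmp12, Adam8, Adam12, Timp3 and the others was not tested.

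The number of members called in this comparison changed when single libraries were left out. Leaving out a library can lower the number of calls over all genes as well. The shares of all genes called in these fits are not given here, so the counts do not show a trait of the members. With each of the 9 libraries left out in turn, the number of members called was 5 without APAP library 1, 5 without APAP library 2, 9 without APAP library 3, 1 without APAP+MSC library 1, 0 without APAP+MSC library 2, 4 without APAP+MSC library 3, and 12, 5 and 12 without APAP+HDF libraries 1, 2 and 3. Adam8 was called in 8 of these 9 fits, Adam23 and Adamtsl4 in 7, Adam12 and Mmp8 in 6, Adam15 and Timp3 in 3, and Mmp12 and Mmp24 in 2. The log2 fold change of these 9 genes stayed below 0 in all 9 fits. Under 8 other settings, each with all libraries kept or only the compared groups, Adam8, Adam12, Adam23, Adamtsl4 and Mmp8 were called in all 8. The call of Mmp12 was lost with limma-voom, with no filter and with the legacy edgeR method (adjusted p up to 0.131), and that of Mmp24 with limma-voom and with no filter (up to 0.0901). Timp3 lost its call with limma-voom, with no filter and with limma on the deposited normalized values (adjusted p up to 0.0955), and Adam15 with both limma fits (up to 0.0616).

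The related systems around these enzymes were read from lists chosen with earlier results of these data known. Of all genes tested, 3.54% fell and 2.83% rose in APAP+MSC against APAP. In the plasminogen system, which activates several metalloproteinases, 0 of 7 tested genes passed in APAP+MSC against APAP. An unadjusted p under 0.05 was reached by 5, against 22.9% of all genes. All 3 APAP+MSC libraries lay above APAP for 2 of the 7 (against 13.7% of all genes) and below for 4 (against 14.7%). Plaur, the urokinase receptor, lay at 8.08, 7.80 and 13.1 CPM with APAP and at 5.0, 2.30 and 2.84 CPM with APAP+MSC (edgeR adjusted p = 0.0663), and Plg, plasminogen itself, at 1605, 2056 and 1843 against 2323, 2498 and 2372 CPM (edgeR adjusted p = 0.213). Of 7 other protease inhibitors tested, Slpi, an inhibitor of neutrophil elastase, fell by 2.83 on the log2 scale (SE 0.52, edgeR adjusted p = 0.0189), and Tfpi2, an inhibitor of plasmin, rose by 0.71 (SE 0.12, edgeR adjusted p = 0.0104). Of 21 tested matrix substrates 3 fell and 0 rose. They were the laminin chain Lamc1, the proteoglycan decorin (Dcn) and versican (Vcan), a substrate of several ADAMTS proteases, which lay at 1.57, 1.83 and 2.35 CPM with APAP and at 0.480, 0.604 and 0.793 CPM with APAP+MSC.

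**Figure D4:**
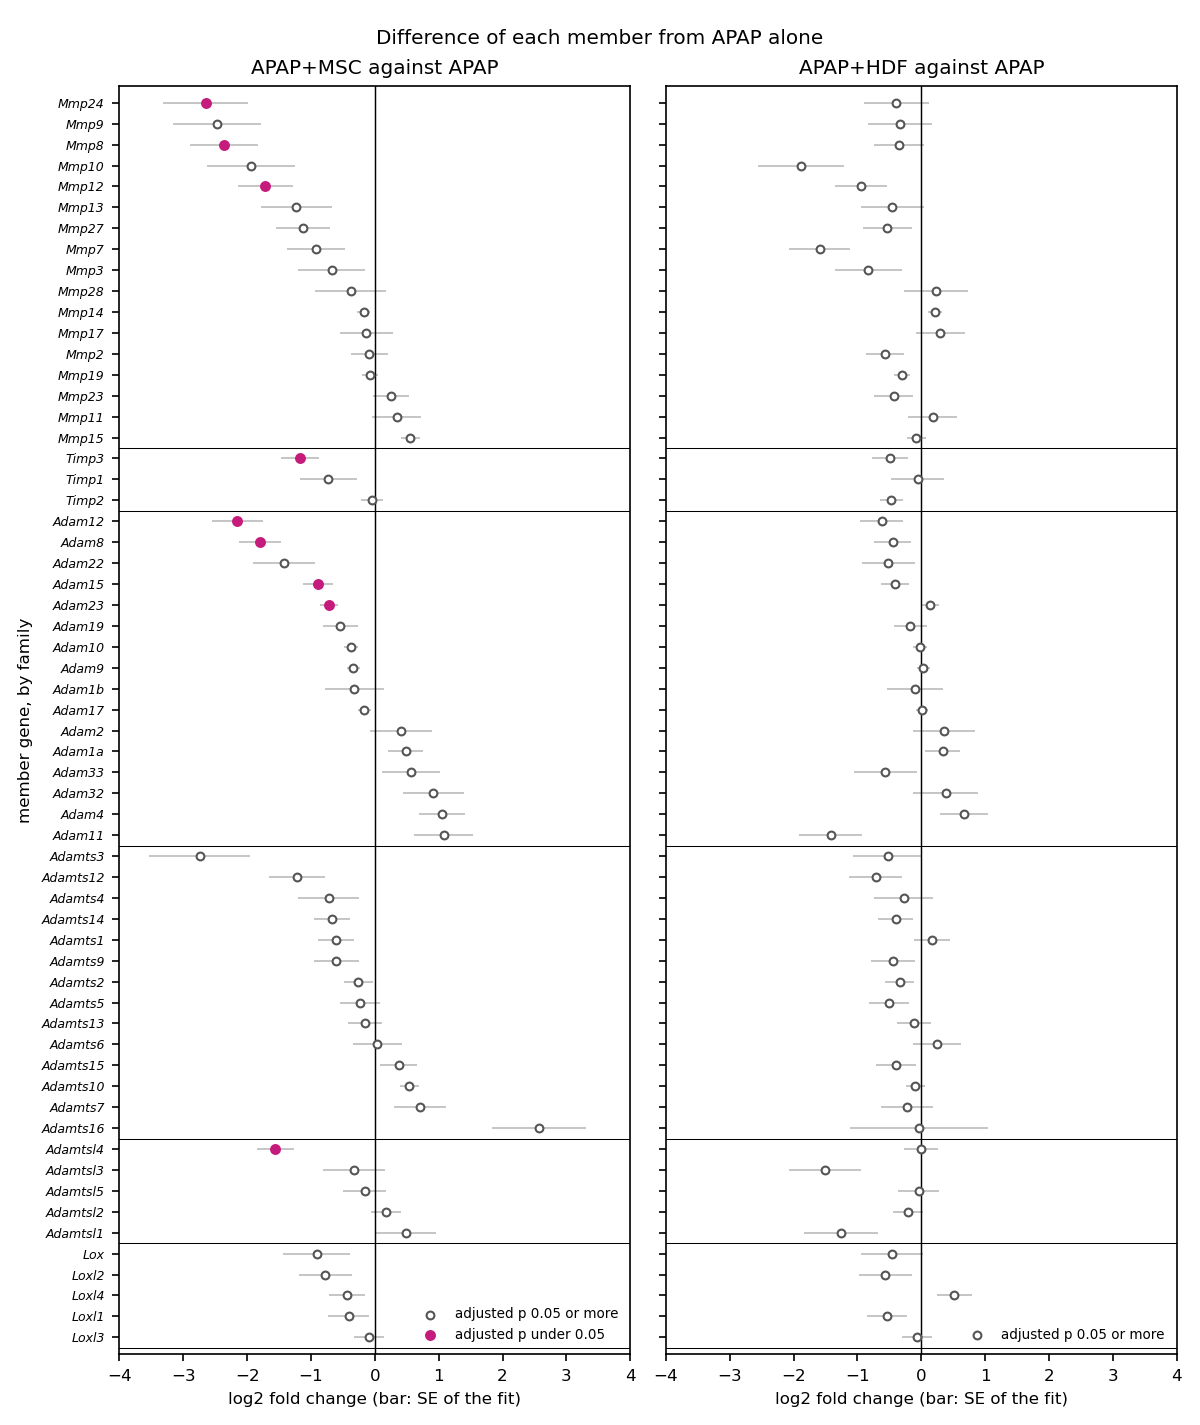
Log2 fold change of each member against APAP alone, with the SE of the fit as a bar, for APAP+MSC on the left and APAP+HDF on the right; filled points have an adjusted p under 0.05, and both panels share the APAP libraries. On the left 9 points are filled, all below 0, and on the right none is.

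In livers given APAP and HDF, edgeR called 0 of the 60 members and 0% of all genes, and the smallest adjusted p over all genes was 0.357. DESeq2 and limma-voom called 0 members too. An unadjusted p under 0.05 was reached by 7 members (11.7%, against 8.78% of all genes), all 7 lower (against 5.14% of all genes lower) and 0 higher (against 3.65%). All 3 APAP+HDF libraries lay below all 3 APAP libraries for 4 members (6.67%), against 6.08% of all genes, and above for 0, against 5.66%. The median log2 fold change was -0.34, against -0.0048 over all genes. The value was above 0 for 14 members (23.3%, against 49.0% of all genes) and below 0 for 46. Because the comparison shares its APAP libraries with the one above, the values are set side by side only.

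The 7 genes with an unadjusted p under 0.05 were Mmp7, Mmp10, Mmp12, Mmp19, Timp2, Adam11 and Adamtsl3, of which Mmp7, Mmp10 and Adamtsl3 were named after their values were seen. Mmp7 lay at 0.685, 0.840 and 1.83 CPM with APAP and at 0.267, 0.439 and 0.435 CPM with APAP+HDF (-1.59 ± 0.48, edgeR adjusted p = 0.502). Mmp12 lay at 3.93, 4.96 and 1.83 CPM with APAP+HDF, overlapping APAP (-0.94 ± 0.41, edgeR adjusted p = 0.556). Mmp19 lay at 62.0, 58.6 and 61.0 CPM, just under the lowest APAP library at 63.2 CPM (-0.31 ± 0.12, edgeR adjusted p = 0.544). Timp2 lay at 7.57, 8.95 and 5.69 CPM and overlapped APAP (-0.47 ± 0.18, edgeR adjusted p = 0.542).

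Members that fell with MSC lay with APAP+HDF as follows. Adam23 stood at 19.8, 23.7 and 22.9 CPM, overlapping APAP, with a difference of 0.14 ± 0.13. Adamtsl4 stood at 12.4, 8.19 and 5.31 CPM and Mmp8 at 0.330, 0.325 and 0.398 CPM, both overlapping APAP. Adam8, at 3.07, 1.72 and 1.49 CPM, differed by -0.45 ± 0.29, and Adam12, at 2.56, 1.32 and 0.924 CPM, by -0.62 ± 0.34. Timp3, at 11.1, 10 and 6.39 CPM, differed by -0.49 ± 0.29, and Adam15, at 5.49, 5.72 and 3.37 CPM, by -0.41 ± 0.22. Mmp24 was widely spread, at 2.44, 0.943 and 0.435 CPM. None of these 8 genes passed against APAP.

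The APAP+HDF libraries differed among themselves in these genes. APAP+HDF library 3 was the lowest of its group for 39 of the 60 members, against 33.0% of all genes tested, and library 1 the highest for 27 (45%, against 38.5% of all genes). In the APAP group library 3 was the lowest for 37 members, against 32.6% of all genes, and library 2 the highest for 27 (45%, against 30.2% of all genes). Without APAP library 3, 1 member was called in APAP+HDF against APAP. This was Adam11 (edgeR adjusted p = 0.00156), and 0 members were called without any other library. The share of all genes called in that fit is not given here.

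The direct comparison of the cell-treated groups, fitted in the same model as the APAP libraries and with the same filter and scaling, called 11 of the 60 members (18.3%, against 8.89% of all genes). In APAP+MSC, 7 were lower (11.7%, against 3.99%) and 4 were higher (6.67%, against 4.90%). All 3 libraries of one group lay above the other's for 23 members (38.3%, against 33.2%), 13 of them with APAP+MSC below (21.7%, against 16.4%) and 10 with APAP+MSC above (16.7%, against 16.8%). At an unadjusted p under 0.05, 24 members differed (40%, against 25.7%), 14 lower (23.3%, against 13.0%) and 10 higher (16.7%, against 12.7%). The log2 fold change was above 0 for 24 members (40%, against 47.7%). The median log2 fold change was -0.19, against -0.02 over all genes.

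Lower with MSC than with HDF were Adam23, Adamtsl4, Adam8, Adam12, Adam9, Mmp8 and Mmp14. Adam23, with no APAP+MSC library above 12.8 CPM and no APAP+HDF library under 19.8 CPM, differed by -0.86 ± 0.14 (edgeR adjusted p = 0.00486), and was called in all 9 fits with a library left out. Adamtsl4 differed by -1.55 ± 0.28 (edgeR adjusted p = 0.00947), Adam8 by -1.35 ± 0.34 (adjusted p = 0.0326), Adam12 by -1.54 ± 0.42 (adjusted p = 0.0436) and Mmp8 by -2.01 ± 0.56 (adjusted p = 0.0472). Adam9, at 103, 109 and 103 CPM with APAP+HDF, differed by -0.37 ± 0.10 (edgeR adjusted p = 0.0495). Mmp14, at 91.3, 85.5 and 102 CPM with APAP+HDF, differed by -0.39 ± 0.10 (edgeR adjusted p = 0.0376). No APAP+MSC library reached the lowest APAP+HDF library in any of these 7 genes. Loxl4, at 14.7, 14.5 and 9.98 CPM with APAP+HDF and 8.21, 8.55 and 3.54 CPM with APAP+MSC, differed by -0.95 ± 0.28 and missed the threshold (edgeR adjusted p = 0.0626), while DESeq2 and limma-voom called it.

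Higher with MSC than with HDF were Adam11, Adamts10, Adamts16 and Mmp15. Adam11, a relative of Adam23 without protease activity, lay at 18.5, 27.5 and 25.5 CPM with APAP+MSC and at 4.36, 4.47 and 3.82 CPM with APAP+HDF (2.5 ± 0.50, edgeR adjusted p = 0.0211). The APAP libraries lay at 15.6, 15.2 and 3.27 CPM, so that 2 of them were near the APAP+MSC values and 1 was under every APAP+HDF value. Mmp15 lay at 32.3, 42.3 and 52.3 CPM with APAP+HDF, all under the APAP+MSC libraries (0.63 ± 0.15, edgeR adjusted p = 0.0268), and Adamts10 at 7.44, 8.94 and 7.06 CPM (0.63 ± 0.15, edgeR adjusted p = 0.0251). Adamts16 had 0, 4 and 4 counts with APAP+HDF against 18, 14 and 14 counts with APAP+MSC (edgeR adjusted p = 0.0403).

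With a library left out, the number of members called between the cell-treated groups was 11, 6 and 13 without APAP libraries 1, 2 and 3, then 3, 1 and 4 without APAP+MSC libraries 1, 2 and 3, and 2, 4 and 7 without APAP+HDF libraries 1, 2 and 3. Here too a left-out library can lower the calls over all genes, whose shares in these fits are not given. Adamtsl4 was called in 8 of these 9 fits, Adam8, Adam11 and Adamts10 in 5, Mmp15 in 4, and Adam9, Adam12, Adamts16, Mmp8 and Mmp14 in 2. Direction stayed the same for all 11 genes in these fits. Under the other settings Adam23, Adamtsl4, Adam8, Mmp15 and Adamts10 were called in all 8. Adam9 lost its call in 4 of 8, namely limma-voom, median-of-ratios scaling, no filter and limma on the deposited normalized values (adjusted p up to 0.0817). Adam12 lost its call with limma-voom and with only these groups fitted (adjusted p up to 0.0799), and Mmp14, Mmp8 and Adam11 with no filter (adjusted p 0.0591, 0.0662 and 0.0693). Adamts16 lost its call in 3 of the 7 settings that gave it an adjusted p, which were both limma fits and the legacy edgeR method (up to 0.0848).

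For the lists in this comparison, the shares over all genes were 3.99% lower, 4.90% higher and 25.7% with an unadjusted p under 0.05. Of the other protease inhibitors, Slpi was lower and Tfpi2 higher with MSC than with HDF (edgeR adjusted p = 0.0384 and 0.00569). Of 21 matrix substrates, Fn1, Lamc1 and Vcan were lower and Col3a1, a fibrillar collagen chain, was higher, at 36.6, 44.2 and 43.6 against 15.6, 24.1 and 12.4 CPM. Of 17 sheddase substrates and partners, Mertk and Tgfa were lower. Of the collagen-modifying enzymes 0 of 11 were called by edgeR, and 1, Pcolce, had an unadjusted p under 0.05. Beside these values, 3 of 14 macrophage and monocyte, 0 of 6 neutrophil and 4 of 10 sinusoidal endothelial markers were lower with MSC than with HDF. Of 8 Kupffer cell markers 1 was lower, while the median log2 fold change of that list was above 0, at 0.28. Of 15 stellate cell and fibroblast markers 0 were lower and 1 was higher, 1 of 5 platelet markers was higher, and 4 of 8 cholangiocyte markers were higher (Spp1, Cftr, Krt19 and Epcam). Their part in the differences of the members was not tested.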

How the data were processed

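Raw read counts per gene symbol were deposited by the authors as whole numbers. The second deposited table holds a normalized signal, which is the raw counts over 1 factor per library. HISAT2, Subread and DESeq2 with mm39 and GRCm39 were used per the submitters' processing notes, with versions, annotation and strand setting not given in the sources used here. Counts of 28956 entries were filtered with filterByExpr, leaving 17582 genes, and scaled by TMM. An edgeR 4.0.16 quasi-likelihood model (R 4.3.3, robust, group as its only term, all 9 libraries, common biological coefficient of variation 0.197) gave log2 fold changes, SE and two-sided p-values, adjusted by Benjamini-Hochberg over all genes tested and called under 0.05. The SE of the fit is the absolute log2 fold change over the square root of its F statistic. Levels are CPM on TMM-scaled library sizes. The limit that a count of 0 allows was 3 counts (0.0453 to 0.0567 CPM), which covers counting error alone. Of counts between 1 and 20, 66.1% to 68.7% were even, so counts are not single molecules. The limit for a count of 0 takes each count as independent and may therefore be too low. Every member called in a comparison is named, with a fixed panel of Mmp, Timp, Adam, Adamts and Lox genes. From pathway lists, up to 4 called genes with the smallest p are named, and Mmp3, Mmp7, Mmp10, Mmp27, Adamts3, Adamts12, Adamtsl3, Plaur, Plg, Pcolce, Ereg and Tspan5 were added after their values were seen. Members and lists were chosen with earlier results of these data known. A gene that the rule takes from the pathway lists is not reported here. Alternatives used DESeq2 1.42.0 and limma 3.58.1, other scalings and filters, and fits with each library left out. The steps were tested on simulated data.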

Additional observations from a re-analysis of the deposited data

How the results depend on the processing

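No paired analysis was possible because the column headers carry no replicate numbers. The labels also do not state that libraries of different groups were matched, so no pairing is known to exist. With each library left out in turn, the members called in APAP+MSC against APAP ranged from 0 to 12 (lower 0 to 11, higher 0 to 3), in APAP+HDF against APAP from 0 to 1 (lower 0 to 1), and in APAP+MSC against APAP+HDF from 1 to 13 (lower 1 to 8, higher 0 to 5). A group left with 2 libraries was assumed to vary like the others. The shares of all genes called in these fits and under the other settings are not given here. In APAP+MSC against APAP, limma-voom called 5 members, all 5 lower, and among increases DESeq2 called 2, and the fit with no filter on low counts and the one with only these 2 groups called 1 each. In APAP+MSC against APAP+HDF, DESeq2 called 11 lower, and the fit with no filter called 7, of which 4 were lower. The cause was not tested. Log2 fold changes in APAP+MSC against APAP that changed sign with a library left out all belonged to uncalled genes. Over all libraries left out the ranges were -0.296 to 0.0559 for Adamts13, -0.426 to 0.0258 for Adamts5, -0.182 to 0.101 for Mmp19, -0.270 to 0.167 for Mmp2, -0.152 to 0.0734 for Timp2 and -0.203 to 0.0596 for Loxl3. No member's fold change that was recomputed changed sign under the other 8 settings, of which the legacy edgeR method was added after seeing the data; fold changes of genes outside the family were not recomputed. Genes under about 1 CPM, such as Mmp8, Mmp9 and Adamts16, rest on few counts per library.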
